A study of Mus musculus with 3 samples.

Results

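TEC genes are annotated loci that GENCODE holds as candidates for genes until experiments have settled what they are, and 975 of the 3213 TEC genes in the annotation were expressed in the chromatin-bound RNA of lipid A-stimulated mouse macrophages. They were chosen by a mean expected count of at least 10 over the 3 libraries in the alignment-based gene tables, among genes whose transcripts are all typed TEC in the alignment-free tables; 45 further genes with transcripts of mixed type were not counted. The level of these genes was therefore part of the choice and is described with no test. All 3 libraries came from primary macrophages grown from the bone marrow of C57BL/6J mice, with no genotype other than the strain named, and were taken 90 minutes after addition of lipid A at 100 ng/ml. Age and sex of the mice were not collected, and the 3 biological replicates carried the same donor label. The chromatin fraction was isolated, ribosomal RNA was depleted, and the starting amounts of RNA were 1 µg for replicate 1, 250 ng for replicate 2 and 500 ng for replicate 3. Replicate and amount cannot be told apart. Cells without lipid A were not analysed here, and no value below is a response to it.

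GENCODE gives the TEC type to unspliced loci that were placed on the genome from clusters of expressed sequence tags with features of a polyadenylated end, and that lack the evidence needed to call them a coding or a long noncoding gene. Chromatin-fraction RNA holds transcripts that are still attached to RNA polymerase, introns not yet removed, and RNAs that stay in the nucleus, and so is rich in sequence that mature mRNA lacks. Lipid A, the membrane anchor of bacterial lipopolysaccharide, acts through Toll-like receptor 4 (TLR4) and in macrophages starts NF-kB, MAP kinase and interferon programmes.

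Of the 975 expressed TEC genes, 973 had only single-exon transcripts in the annotation; Gm37415 and Gm38316 each had a spliced one. The annotated ends of a few of them are shown because the TEC type rests in part on features of a polyadenylated end. Each line gives the last 100 bases of the gene on its own strand, 5′ to 3′, from the GENCODE M21 transcript sequences (build GRCm38, mm10), with the polyadenylation signals AATAAA or ATTAAA in capitals. Gm37084 and Gm38357, the 2 most abundant, Gm20236 and Gm43430 hold neither signal there. Gm45407 and Gm38062 are the most abundant members that do, ranking 8 and 11 by mean CPM (counts scaled to a common library total), and were picked for printing after the search had been run.
Gm37084: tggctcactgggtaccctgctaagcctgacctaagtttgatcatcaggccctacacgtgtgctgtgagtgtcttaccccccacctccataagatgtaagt
Gm38357: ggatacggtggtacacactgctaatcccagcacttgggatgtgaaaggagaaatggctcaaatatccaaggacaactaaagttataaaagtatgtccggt
Gm20236: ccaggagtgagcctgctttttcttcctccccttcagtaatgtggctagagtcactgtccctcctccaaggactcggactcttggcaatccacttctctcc
Gm43430: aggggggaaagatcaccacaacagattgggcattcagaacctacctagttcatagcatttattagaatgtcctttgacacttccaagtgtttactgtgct
Gm45407: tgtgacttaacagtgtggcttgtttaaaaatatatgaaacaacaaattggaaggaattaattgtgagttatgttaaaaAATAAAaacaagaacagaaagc
Gm38062: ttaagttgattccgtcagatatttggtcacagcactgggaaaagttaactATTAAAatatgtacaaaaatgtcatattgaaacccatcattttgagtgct
These windows lie at chr1:131086252-131086351 (minus strand), chr3:51234281-51234380 (plus), chr14:69277601-69277700 (minus), chr3:135650670-135650769 (minus), chr8:77368841-77368940 (minus) and chr1:80728809-80728908 (minus). In Gm45407 the signal began 22 bases from the annotated end, and in Gm38062 it began 50 bases from it. Across all 975 members, 312 held one of the 2 signals in the last 100 bases (32%), against 34.8% of the 2238 TEC genes under the minimum and 34.0% of all TEC genes. The first 100 bases of the members, searched the same way on the same strand, held one in 11.7%. Among the 641 members inside a protein-coding gene on its strand the share was 25.6% in the last 100 bases and 13.1% in the first 100. The share for all TEC genes in that position is not given here, so the 25.6% has no background beside it. A match describes these letters only; a run of A after the annotated end was not analysed here.

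Another pair of windows shows stretches of TEC genes whose letters also occur in many other annotated genes. Gm47164 and Gm48309 are the members that differed most between the quantifications. Each line is the 100 bases whose 31-base words were found in the most genes other than TEC genes. The most widely shared word of the window is in capitals.
Gm47164: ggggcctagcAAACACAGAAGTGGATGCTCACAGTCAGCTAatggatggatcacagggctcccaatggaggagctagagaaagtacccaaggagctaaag
Gm48309: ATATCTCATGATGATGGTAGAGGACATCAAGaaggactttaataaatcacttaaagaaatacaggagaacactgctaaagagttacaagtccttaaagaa
The first lies at chr10:103207841-103207940 and the second at chr12:13424917-13425016, both on the minus strand. The capital word of Gm47164 occurred, on either strand, in the annotated transcripts of 79 genes other than TEC genes, and that of Gm48309 in 64. Words also held by another member called different below could be left out when the windows were chosen.

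The deposited expected counts, which are estimated numbers of reads per gene, summed to between 11277198 and 24965749 per library, of which 7715311 to 10036048 lay in protein-coding genes. A count of 0 allows up to 3 counts, or 0.266, 0.120 and 0.152 CPM in replicates 1 to 3; these limits cover counting error only. Of the 15 macrophage markers listed, all 15 passed the minimum, with a summed TPM (transcripts scaled for gene length and for the library total) of 1037 to 1652. The marker lists of 7 other cell types summed to 0.40 to 31.5 TPM, the top being the neutrophil list, in which Elane, Ly6g, Mpo and Retnlg were listed at 0 in every library.

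The expressed TEC genes spanned a wide range of levels. Mean expected counts had a median of 78.7, with 422 members at 100 or more, 63 at 1000 or more and 864 at 10 or more in each library. Of the other TEC genes, 1470 had no count in any library and 768 lay between 0 and the minimum. Per length, the median member had a mean of 2.59 TPM (quartiles 0.967 and 6.94, range 0.143 to 246.8), against 4.86 TPM for the 10530 protein-coding genes over the same minimum. A total of 322 members lay above that protein-coding median. At the edge of the rule, Gm37894, Gm43040 and Gm44830 were just inside with 15, 7 and 8, 20, 5 and 5, and 15, 6 and 9 counts in replicates 1 to 3. Gm43173 (6.79, 11.8 and 11.0 counts), Gm44771 (7, 12.6 and 9.95) and Gm37163 (17, 8 and 4) were just outside, so membership near the limit rested on a few reads.

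The 12 members with the highest mean CPM held 24.4% of all counts in members, and all 12 lay inside a protein-coding gene on its strand. Gm37084 (ENSMUSG00000102856.1, chr1:131086252-131092149, minus strand) lies inside Mapkapk2, the kinase downstream of p38 that controls cytokine mRNA, and had 12431, 14952 and 11552 expected counts in replicates 1 to 3. Per length it stood at 156, 97.0 and 96.3 TPM, above the 95.6, 61.5 and 77.0 TPM of Mapkapk2 itself in each library. Gm38357 (chr3:51231917-51234380, plus strand) lies inside Noct, which encodes the circadian protein nocturnin, and had 14875, 7249 and 7045 counts. At 471, 120.3 and 149.5 TPM it had the highest mean TPM of any member, 246.8 ± 194 (SD, n = 3), and replicate 1 stood apart from the others; Noct was at 366, 191 and 316 TPM.

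Gm47087, inside Maml2, a coactivator of Notch signalling, showed the same order more steeply, with 185, 30.4 and 42.6 TPM, while Maml2 was at 5.16, 1.67 and 3.61 TPM. Dock10 held 3 expressed TEC genes: A630081D01Rik had 320, 51.3 and 65.9 TPM and Gm38062 had 225, 52.5 and 64.1 TPM, while Gm37645, outside the 12, had 69.9, 11.9 and 15.3 TPM. Here the host was higher than each, at 485, 279 and 347 TPM. In TPM replicate 1 was the highest library for all of these TEC genes, and replicates 2 and 3 were closer to each other than to it.

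The remaining members of the 12 lay in Cers6 (Gm37159 and Gm38377), a ceramide synthase; Arhgap10 (Gm45407); Itpkb (Gm37033), an inositol trisphosphate kinase; Notch2 (Gm42819), a Notch receptor; and, as a pair, Slc25a37 (Gm20236), the mitochondrial iron importer mitoferrin, and Gm16867 (Gm37094). Their mean TPM ran from 28.4 ± 17.3 (SD, n = 3) for Gm37033 to 90.7 ± 23.9 for Gm20236. Gm20236 and Gm37094 have the same 4540-base sequence at 2 places on chromosome 14 and the same values, 7181, 8987 and 7019.5 counts each, so their reads cannot be told apart and they count as 1 observation. On the TMM-normalised log2 CPM used for the library comparison below, replicate 2 was the highest for this pair (8.81, 8.96 and 8.54) and for Gm37084 (9.61, 9.69 and 9.26). Besides this pair, 3 other pairs of members had identical sequences.

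**Figure D1:**
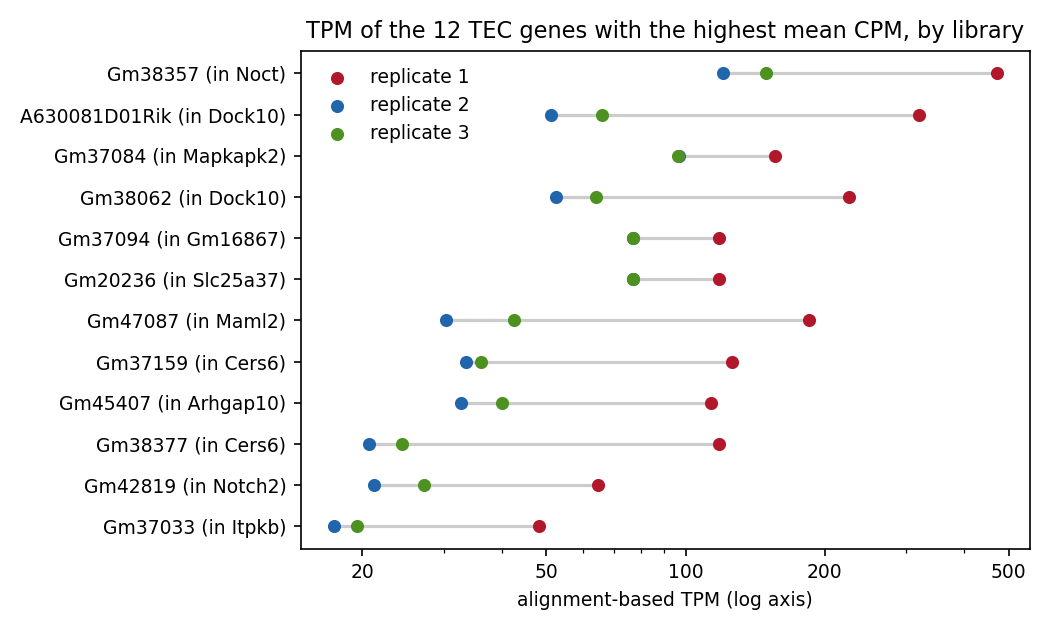
TPM (log axis) of the 12 expressed TEC genes with the highest mean CPM, with the gene each lies inside; each point is 1 library and the grey line joins the 3 libraries of a gene. In TPM, replicate 1 is the highest library in all 12 genes, by the smallest margin in Gm37084, Gm20236 and Gm37094, where the points of replicates 2 and 3 lie on top of each other.

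Most expressed TEC genes lay in introns of active protein-coding genes. A total of 641 (65.7%, exact 95% interval 62.7 to 68.7, over members) lay wholly inside a protein-coding gene on its strand, against 45.8% of all 3213 TEC genes. These touched no exon of any gene on that strand, other TEC genes aside, and they held 79.5% of the counts in members. A further 168 (17.2%) overlapped a protein-coding gene on the opposite strand, and 46 (4.72%) overlapped an exon of another gene on their own strand. Inside other kinds of gene lay 40, downstream of a protein-coding gene within 10 kb 27, opposite other genes 10, and divergent from a protein-coding start within 2 kb 9. The remaining 34 members (3.49%) lay away from all of these, against 747 of all TEC genes (23.2%), so that 4.55% of such TEC genes were expressed, compared with 43.5% of those inside a protein-coding gene. Level was used to choose the members and position was not, and these shares are descriptions with no test. The interval given treats members as independent of each other, although several can lie in the same host.

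By class, the median of the members' mean TPM was 2.98 for those in introns of protein-coding genes, 3.45 for those over an exon, 3.59 inside other genes, 1.69 opposite a protein-coding gene and 1.03 for intergenic ones. Among exon-overlapping members, Gm49730 in Parp14, an interferon-induced ADP-ribosyltransferase, was at 176, 37.5 and 50.4 TPM, Gm43323 in Rbm47, an RNA-binding protein, at 52.4, 17.7 and 18.5 TPM, and Gm42820 in Notch2 at 39.3, 13.9 and 18.2 TPM. Reads over the shared exon bases can be assigned to either gene in these 46. Opposite Cdkn1a, the cell cycle inhibitor p21, AC167363.2 was at 51.6, 135.2 and 90.2 TPM (604, 2907 and 1537 counts), and so ran against the other top members, with replicate 1 as the lowest library. Opposite 2010111I01Rik, Gm47603 was at 81.0, 27.6 and 23.3 TPM. The strand setting of either quantification is not given in the sources used here, so reads of a gene and of its opposite-strand partner cannot be told apart.

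Within genes that do not code for protein, Gm43197 in Gm20559 (67.8, 8.64 and 13.6 TPM) and 5330406M23Rik in Lncpint, a p53-regulated long noncoding RNA (74.98, 17.2 and 21.8 TPM), were the most abundant by CPM. Downstream of a protein-coding gene the top was Gm43682, 523 bases past Sept11, at 16.2, 3.06 and 4.39 TPM. Divergent members were led by Gm44154, which starts 1223 bases from Zfp422, at 16.9, 8.09 and 7.26 TPM. Intergenic members were led by Gm37352 at 9.55, 11.4 and 10.6 TPM, with TMM-normalised log2 CPM (defined with the library comparison below) of 4.06, 5.05 and 4.53, so that the libraries were close in TPM and replicate 1 was the lowest in scaled CPM.

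The level of an intronic TEC gene went with the level of its host. The 641 members sat in 452 protein-coding hosts, 442 of which passed the minimum themselves, and the host of the median member was at 13.6 TPM. The 831 TEC genes that were inside a protein-coding gene but under the minimum had hosts with a median of 0.0133 TPM, and 232 of these (27.9%) had a host over the minimum. Put the other way, of 863 TEC genes in hosts over the minimum, 631 (73.1%) were expressed. With hosts binned at the limits that split the expressed protein-coding genes into 3 equal groups (2.25 and 10.05 TPM), the share was 32.9% in the low bin (75 of 228), 76.3% in the middle bin (184 of 241) and 94.4% in the high bin (372 of 394). The expressed ones had median levels of 0.767, 1.88 and 5.65 TPM in the 3 bins.

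Across the 641 members, Spearman's rank correlation between TPM of member and host was 0.689, 0.597 and 0.629 in replicates 1 to 3. Members of 1 host share that host's value, and all points share a library, so the correlation is a description across genes with no test. Leaving 618 members with no exon of another gene on either strand, other TEC genes aside, gave 0.694, 0.599 and 0.635. Most members were below their host: 515 of 641 in every library, and 41 above in every library, with a median log2 ratio of mean TPM of -2.10. Gm37084 and Gm47087 were among those that exceeded their hosts in each library. Because the tables hold no intron values, unspliced host RNA and a separate TEC transcript over the same interval cannot be told apart.

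**Figure D2:**
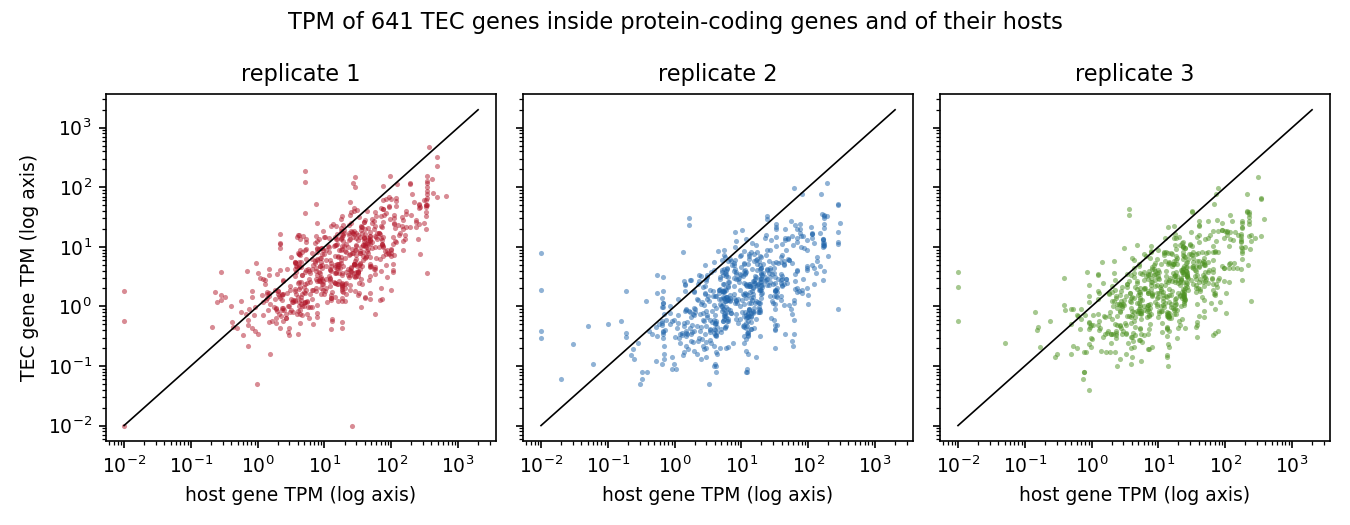
TPM of the 641 expressed TEC genes inside protein-coding genes (vertical, log axis) against TPM of the host (horizontal, log axis), 1 panel per library and 1 point per TEC gene, with values under 0.01 drawn at 0.01; the line marks equal TPM. Points rise with the host in each panel, with rank correlations of 0.689, 0.597 and 0.629, and 515 of the 641 lie under the line in every library.

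Expressed TEC genes in the first part of a host had a higher median level than those in its last part. Hosts over the minimum were cut into 4 equal lengths from start to end. The median log2 ratio of member to host was -1.57, -2.02, -2.30 and -2.79 along the host, over 208, 183, 144 and 96 members. The hosts differed too, with median levels of 11.7, 12.3, 19.5 and 18.2 TPM, so the ratio takes in host level as well. The members' own median levels were 4.67, 2.70, 3.09 and 1.91 TPM, without a steady fall. The median TPM of these members was 8.55, 2.23 and 2.98 in replicates 1 to 3 in the first segment, and 3.62, 1.13 and 1.42 in the last. The share of TEC genes that were expressed was 78.8% in the first segment and between 70.1% and 71.2% in the others. Member levels were part of the choice, so these medians describe expressed genes only.

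A total of 111 hosts held 2 or more expressed TEC genes, and 38 held 3 or more, with 154 members between them. In 26 of the 38, TPM fell with distance from the host start in every library (negative rank correlation over the host's members), and in 6 it rose in every library. The member closest to the start was the highest in every library in 12 of the 38 hosts, and the one farthest from it in 4. The median rank correlation over hosts was -0.667. Many of the 38 held only 3 members, where a rank correlation can take few values, and these counts are descriptions with no test.

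Ncoa2, a nuclear receptor coactivator, showed a decline over its 6 members, though not at every step. Gm38380, 17.4 kb from the start, was at 9.34, 3.95 and 4.33 TPM, Gm37702 at 75.2 kb was at 5.92, 1.91 and 2.55 TPM, and Gm38376 at 194 kb was at 0.770, 0.200 and 0.210 TPM. The decline was seen in each library, with rank correlations of -0.943, -0.943 and -0.886. Against it, Gm38223 at 83.6 kb (2.65, 0.670 and 1.56 TPM) lay below Gm37409 at 138 kb (3.32, 1.23 and 1.60 TPM) in every library. In Apbb2, which encodes a protein that binds the amyloid precursor protein, the 7 members ran from 8.88, 4.42 and 3.78 TPM for C530043K16Rik at 23.2 kb to 3.28, 1.63 and 2.08 TPM for Gm43790 at 296 kb. The top of that host was Gm43795 at 84.6 kb, with 16.9, 4.48 and 5.57 TPM.

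In the other 4 of the hosts with most members the decline was less regular. Camk2d, a calcium/calmodulin-dependent kinase, held 7 members: Gm43011 at 3.73 kb had 50.6, 13.6 and 14.97 TPM, and Gm42515 at 141 kb had 61.6, 11.6 and 16.2 TPM. Between them Gm43005, the shortest at 648 bases, had 19.7, 2.73 and 4.19 TPM, and the rank correlation over the host was -0.107, -0.786 and -0.286. In Cers6, Gm37159 at 29.9 kb had 126, 33.4 and 36.1 TPM, and Gm37666 at 152 kb had 152, 34.6 and 38.1 TPM, so that a far member was as high as the one nearest the start; the rank correlation was 0.143, -0.257 and -0.257. Dis3l2, an exoribonuclease, had its highest member farthest from the start: Gm37447 at 333 kb was at 4.72, 1.56 and 1.44 TPM, while the 5 others had means of 0.263 to 0.960 TPM. Tcf12, a basic helix-loop-helix transcription factor, held 7 members, all with means between 0.303 and 1.72 TPM and with rank correlations of -0.429, -0.786 and -0.396.

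**Figure D3:**
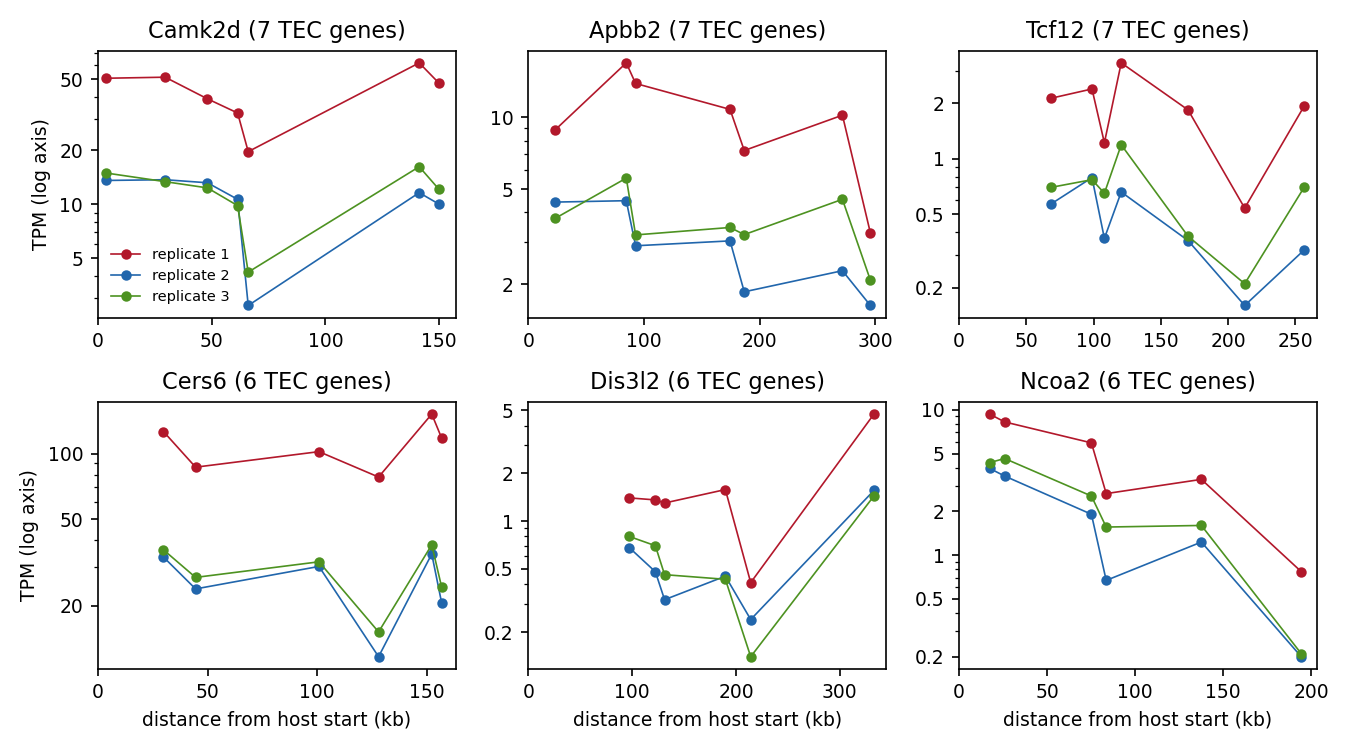
TPM (log axis) of the expressed TEC genes of the 6 hosts with 6 or 7 of them, against the distance of each from the host's start in kb; 1 colour per library, lines join the TEC genes of a host. Levels fall along Ncoa2 in each library, from 9.34 to 0.770 TPM in replicate 1, stay about level along Cers6, and end with the highest value in Dis3l2.

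Expressed TEC genes with a host or neighbour on the lists of response genes used here numbered 6 of 975, against 7 of all 3213 TEC genes. These lists also hold receptors, adaptors and kinases of the pathway and do not cover all targets of TLR4 signalling. Of 155 genes on 5 lists of response genes (NF-kB regulators, interferon-stimulated genes, cytokines and chemokines, immediate early genes, effectors), 5 were the host or neighbour of an expressed TEC gene; 7 TEC genes had such a partner in the annotation and 6 of them were expressed. Gm43430 (chr3:135650670-135654566, minus strand) lies inside Nfkb1, which encodes the p105 precursor of the NF-kB subunit p50, and had 4188, 2459 and 2255 counts, or 81.0, 24.7 and 29.1 TPM. Nfkb1 was at 424, 298 and 384 TPM, so the TEC gene stood below it in each library. Gm49730 in Parp14 is given above with its shared exon. Opposite Oas2, an interferon-induced antiviral enzyme, Gm43068 was at 27.0, 4.58 and 7.23 TPM.

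Irak2, a kinase of the Toll-like receptor pathway, had a member on each strand. Gm43912, in its introns, was at 30.5, 13.1 and 13.5 TPM, and Gm43963, on the opposite strand, at 20.3, 7.35 and 10.4 TPM, with Irak2 at 110.5, 97.0 and 119.5 TPM. In Pfkfb3, which drives glycolysis, Gm37975 was at 7.55, 2.35 and 2.82 TPM. No member had a host or neighbour among the 30 cytokines and chemokines or the 31 immediate early and feedback genes, 28 and 30 of which passed the minimum. Among the lists for other cell types, the single case was Gm45663, 8195 bases downstream of the endothelial gene Cdh5. It was at 5.06, 1.15 and 2.14 TPM, with Cdh5 at 0.0400, 0.110 and 0.480 TPM. Of the 31-base words of Gm45663, 87.9% occurred in other genes, and it is among the members called higher in the alignment-free tables below. It had 101, 43.1 and 63.0 alignment-based against 804, 587 and 630 alignment-free counts.

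The libraries differed in how much TEC sequence they held. Members took 395015, 231679 and 221207 counts in replicates 1 to 3, which is 3.503%, 0.928% and 1.12% of all counts. Against the protein-coding counts of the same library they were 51.2, 23.1 and 22.2 per 1000. The median member was at 4.51, 1.33 and 1.73 TPM, and 947 of 975 had their highest CPM, with no scaling factor, in replicate 1, as did 7458 of 10530 protein-coding genes. Replicate 1 stood apart in each of these measures, while replicates 2 and 3 were close. It was made from the largest amount of RNA and also had the lowest total, 11277198 counts against 24965749 and 19794886. Protein-coding genes held 7715311, 10036048 and 9964310 of these in replicates 1 to 3, so the libraries differed in make-up as well.

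With TMM-normalised log2 CPM, which scales libraries to a common core of genes, replicate 1 exceeded the mean of replicates 2 and 3 by a median of 1.00 over members (quartiles 0.57 and 1.41), and 898 members (92.1%) lay above 0. Protein-coding genes lay at -0.14 and long intergenic noncoding RNAs at 0.70. The 124 sense-intronic noncoding genes over the minimum, also single loci in introns, lay at 1.04. Intronic TEC genes moved apart from the genes that hold them: their median was 1.05 and that of their hosts -0.01, and the member's value exceeded the host's in 577 of 631 pairs. The value was 1.30 for members inside genes that do not code for protein, whose hosts lay at 1.21, and 0.63 for members opposite a protein-coding gene. Without any scaling factor the members' median was 1.77 and that of protein-coding genes 0.63, so the sign of the protein-coding value depended on the scaling. The parts that the amount of RNA and the library total had in this were not tested, since each amount was used once and replicate 1 also had the lowest total.

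**Figure D4:**
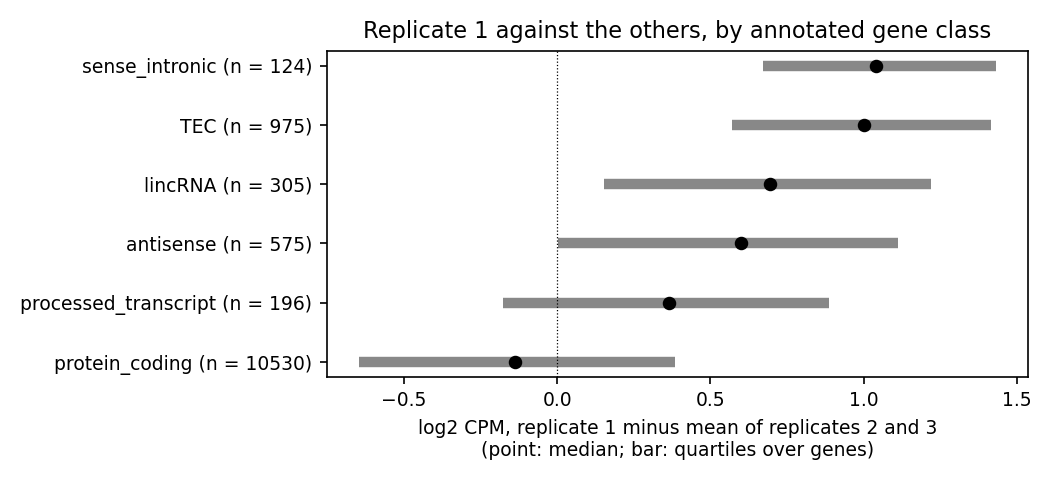
Difference in log2 CPM (TMM-normalised) between replicate 1 and the mean of replicates 2 and 3, by annotated gene class over the minimum count; points are medians over genes and bars run from the lower to the upper quartile. TEC genes (1.00) and sense-intronic genes (1.04) lie highest, and protein-coding genes lie at -0.14.

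Members varied more between the 3 libraries than protein-coding genes did, and the members' own spread was far lower once replicate 1 was left out. The median SD of log2 CPM over the 3 libraries was 0.63 for members and 0.36 for protein-coding genes, and 0.18 for members without replicate 1. The last value rests on the other libraries alone, and its counterpart for protein-coding genes is not given here. In 4 bins of CPM with equal numbers of members, it ran from 0.58 to 0.66 for members and fell from 0.46 to 0.32 for protein-coding genes, so the members' spread did not shrink at higher levels. Among members with a mean count of at least 50, Gm47550, opposite Fcho2, varied least, with 94, 106 and 110 counts and an SD of 0.01 after scaling. Next were Gm43294 in Vps50 (150, 178 and 183 counts) and Gm47246 in Naa35 (72, 76 and 83 counts). At the other end, Gm43924, 9154 bases downstream of Mdfic, had 161, 14 and 38 counts, and D630030B08Rik in Atp8a1, a phospholipid flippase, had 297, 37 and 76.

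The largest spread belonged to Gm37110 in Khdrbs2, with 0, 290 and 110 expected counts, and this gene has the same sequence as Gm44183 opposite Nek6, which had 447, 124 and 330. The alignment-free quantification gave 1718, 1724 and 1649.5 counts to Gm37110 and the same to Gm44183. Reads of 2 identical sequences cannot be told apart, so neither value is a measurement of its own locus.

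The alignment-free quantification gave a similar order of levels for most members but set a small group far higher. Each gene's difference was taken within a library, as log2(alignment-free TPM + 1) minus log2(alignment-based TPM + 1), after each was centred on its median protein-coding gene, and limma's treat asked whether it exceeded 1 log2 unit in size. At an adjusted p under 0.05 over all genes, 28 of 975 members (2.87%) were higher in the alignment-free table, beside 1.9% of all 13427 genes tested, and 0 were lower, beside 0.633%. At an unadjusted p under 0.05, 46 were higher and 0 lower. The median difference was -0.48 over members and -0.23 over all genes, and the lowest member was at -0.998. Both quantifications come from the same reads, and the p-values measure only the spread between 3 libraries of 1 donor label, which may be technical.

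Gm47164 (chr10:103207748-103213437, minus strand), in Lrriq1, had 140, 279 and 248 expected counts and 71894, 85604 and 85703 alignment-free counts. Its difference was 6.74 ± 0.35 (SD, n = 3; adjusted p = 3.1e-05, limma treat), while its host Lrriq1 was listed at 0 in each alignment-based table. Gm48309, opposite Nbas, had 12, 39 and 39 against 12099, 19461 and 17501 counts, a difference of 6.58 ± 0.27 (adjusted p = 2.79e-05, limma treat). Gm48271, in an intergenic region of chromosome 10, had 18, 16 and 16 against 13237, 6924 and 6562 counts (5.47 ± 0.87). All 3 were above the alignment-based count in every library by a factor far larger than the median of 1.66 over members and 1.72 over protein-coding genes.

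These genes share most of their sequence with other genes. Of the 31-base words of Gm47164, 96.9% occurred in transcripts of other annotated genes, TEC genes included. Leaving TEC genes aside, at least 315 genes held some of these words. That number is a minimum because words also held by another called member could be left out. The windows printed above, also chosen without TEC genes, show widely shared stretches of Gm47164 and of Gm48309, where 93.6% of words were shared. In Gm48271 the share was 93.2%, with Tmem72 alone holding at least 73.1% of its words. In Gm42860, also called, it was 91.1%, with at least 65.4% in Noct. Over the 28 called members the median share was 41.3%, against 1.38% over the 947 others. Of the 45 members with over 50% of words shared, 14 were called (31.1%), and of the other 930, 14 (1.51%). The part of shared sequence in the difference was not tested.

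Some called members shared few words with other genes. Gm37357, 1947 bases downstream of Suco, had 19, 5 and 12 against 1195, 4203 and 3480 counts, a difference of 4.004 ± 0.75 (adjusted p = 0.00188, limma treat), with 5.12% of words shared. Gm37144, in Mrpl15, a mitochondrial ribosomal protein gene, had 7, 14 and 21 against 810, 1065 and 1407 counts (3.89 ± 0.26), with 5.99% shared. In all, 8 of the 28 had under 10% shared, among them Gm43633 in Parp11 with 57, 70 and 74 against 2033, 1948 and 2074 counts. Most called members had few alignment-based reads, with a median mean count of 27.5.

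The 28 called members held 20.5%, 29.5% and 30.4% of the members' counts in the alignment-free tables of replicates 1 to 3, and 0.459%, 0.731% and 0.856% in the alignment-based ones. Spearman's rank correlation between the TPM of the quantifications across the 975 members was 0.829, 0.805 and 0.817, and 0.907, 0.872 and 0.880 without the 28. The 28 were picked for their difference between the quantifications, so a rise on leaving them out was built into the choice. None of the 12 most abundant members was called; all 12 lay below 0, between -0.99 for Gm47087 and -0.82 for A630081D01Rik, just inside the bound. Gm37084 had 12431, 14952 and 11552 counts by alignment and 14444, 18058 and 13986 without, and Gm43430 in Nfkb1 had 4188, 2459 and 2255 against 4945, 3150 and 2826. The ratio of these counts was smaller than that of the median protein-coding gene. The choice of quantification also set how many TEC genes count as expressed: 2009 had a mean alignment-free count of at least 10, which took in all 975 members and 1034 others.

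Among those 1034, the highest were Gm42519, with 6, 10 and 10 alignment-based against 4924, 6721 and 7335 alignment-free counts, and Gm37376, which lies opposite Malat1, an abundant nuclear long noncoding RNA. Gm37376 was listed at 0 in the alignment-based tables and had 0, 2505 and 13579 alignment-free counts, and all of its words (100%) occurred in other transcripts. Gm44660, Gm47025 and Gm47673 had at most 9 alignment-based counts in any library and between 1355 and 5019 alignment-free counts. In all 5 of these TEC genes over 70% of words were shared.

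**Figure D5:**
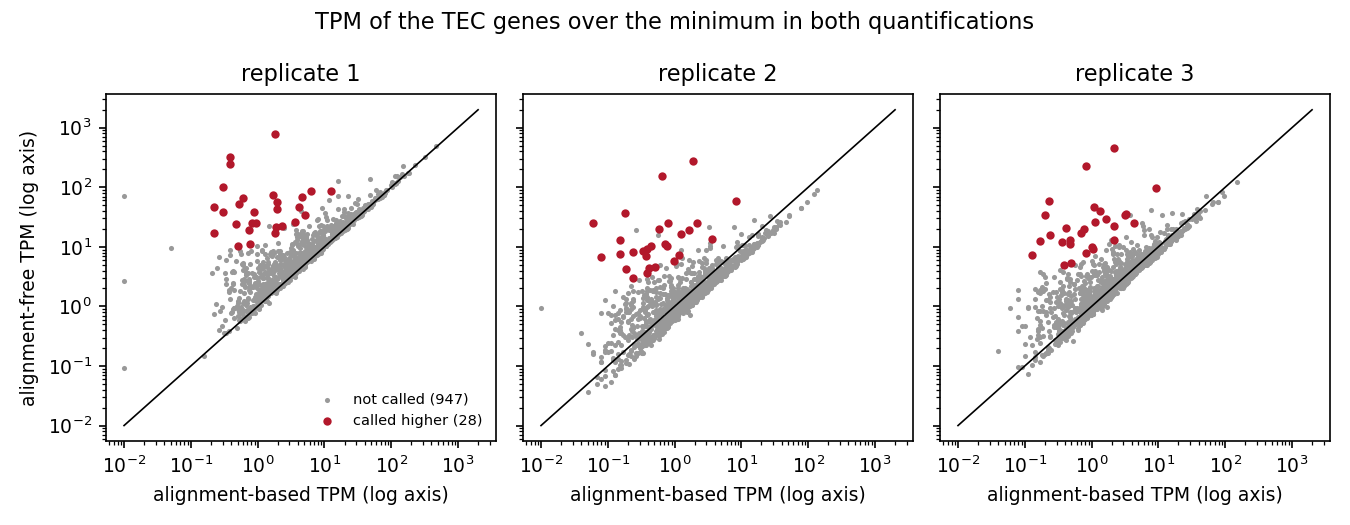
Alignment-free TPM (vertical, log axis) against alignment-based TPM (horizontal, log axis) of the 975 expressed TEC genes, 1 panel per library, with values under 0.01 drawn at 0.01 and the line marking equal TPM. The 28 members called higher (red) lie above the main band in each library, topped by Gm47164. The 12 members with the highest mean CPM lie below the line in replicates 2 and 3.

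In sequence, the expressed TEC genes resembled the other TEC genes in composition and were longer. Their median length was 2262 bases (quartiles 1582 and 3113), against 1761 for the TEC genes under the minimum, and a longer gene collects more reads at the same level, so length bears on a rule set in counts. Median GC content was 42.1% and 42.3%. The median share of 31-base words found in other genes was 1.47% for members and 0.578% for the others.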

How the data were processed

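Total RNA-seq of 3 chromatin-fraction libraries of 1 group was used, with group and replicate taken from the labels. The deposited gene tables hold expected counts and TPM made by the authors from a transcriptome alignment (mm10, GENCODE M21, per the deposited description files, with the column names of RSEM per the file headers). The deposited alignment-free transcript tables hold estimated counts and TPM (column names those of kallisto, per the file headers) and were summed to genes. Deposited TPM were scaled over all entries of a file, so each TPM depends on the other RNAs of its library. The sources used here do not give aligner, versions, strand setting or the treatment of reads that fit several genes, which bears on genes with shared sequence.

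Members, lists and tests were chosen with earlier results of these data known. Positions came from the GENCODE M21 annotation, and each gene took the first class that applied. Other TEC genes and their exons were left out when the classes were set. Quantifications were compared with limma 3.58.1 (treat, intercept only, pseudocount 1 TPM, Benjamini-Hochberg over 13427 genes), checked on simulated data. TMM factors (1.44, 0.726 and 0.956) came from edgeR 4.0.16 and alternative size factors from DESeq2 1.42.0, both on rounded expected counts, in R 4.3.3; log2 CPM used a prior count of 2. Other steps used Python 3.11.15. Named genes were the 12 highest by CPM, the 5 with the largest called difference in each direction, 3 on each side of the minimum, 3 per position class, 10 by listed neighbours, 3 of largest and 3 of smallest spread, 5 highest non-members by alignment-free count, and members of hosts with several. Alternatives covered pseudocount, centring, unit, minimum, windows, scaling and single libraries; those for the replicate 1 difference and for positions without replicate 1 were chosen after seeing the data. The 3 libraries have no second group, so no conditions were compared.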

Additional observations from a re-analysis of the deposited data

How the results depend on the processing

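The number of members called higher in the alignment-free tables was 28. It was 49 with a pseudocount of 0.1, 50 without centring, 57 on log2 CPM of counts, 7 with a minimum of 100 (of 422 members) and 182 over all 3213 TEC genes with no minimum, where 1 was lower; it ran from 24 to 36 with a library left out. Of the 28, 22 passed in every setting that held them. The members' median difference was 0.0699 without centring and -0.28 on CPM. The median spread was 1.05 without scaling factors and 0.18 to 0.73 with a library left out, lowest without replicate 1. The replicate 1 difference was 1.77 over members without factors, and 0.63 over protein-coding genes. Members numbered 2009 by alignment-free counts and 931 to 990 with a library left out. With a minimum of 100, 73.7% lay inside a protein-coding gene, 12.6% opposite one, 1.42% in no class and 0.948% downstream; a 5 kb window gave 1.74% downstream. Without replicate 1, 65.9% lay inside a protein-coding gene. The mean rank correlation with hosts was 0.638, and 0.575 by alignment-free TPM. The cause of each shift was not tested. No paired analysis was possible because there was 1 group, so replicate numbers pair no samples across groups; the 2 quantifications were compared within each library. Depth limits members near the minimum, where the genes named just inside it had as few as 5 counts in a library.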
